A study of Homo sapiens with 4 samples.

Results

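The insulin-like growth factor (IGF) system was followed at the RNA level through 10 genes of the 33538 listed in the matrices: the binding protein genes IGFBP2, IGFBP3, IGFBP4, IGFBP5 and IGFBP6, the receptor genes IGF1R, IGF2R and INSR, and the receptor substrate genes IRS1 and IRS2. They were matched by symbol, and all 10 were found. The family was chosen by measured values of these same libraries, the levels of IGFBP5 in the resistant lines above all, so that all values below describe these libraries, and no test stands behind them.

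The cells were LNCaP, an androgen-dependent human prostate cancer line, and its derivatives, with 1 library per group. Parental cells had received the solvent DMSO (0.1%) for 48 h (LNCaP) or 10 µM enzalutamide, an antagonist of the androgen receptor, for 48 h (LNCaP-ENZ48). Both resistant lines were derived from LNCaP under long drug selection and were then kept in 10 µM enzalutamide. The selecting agent was enzalutamide for RES-A, at stepped doses, and the related antagonist RD-162 for RES-B. Each resistant line was a single culture that still had the drug, so effects of the line, of the drug and of the library cannot be told apart.

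RNA was captured at its 3′ end and counted as unique molecular identifiers (UMIs), each standing for 1 captured molecule. A total of 14727 cells passed the filters, 1782 from LNCaP, 4315 from LNCaP-ENZ48, 4569 from RES-A, 4061 from RES-B, with 50208831 to 60838227 UMIs per library. The median LNCaP cell held 27079.5 UMIs, and the medians of LNCaP-ENZ48, RES-A, RES-B were 13676, 12138 and 12285. Where 4 values are given in a row below, they follow the order LNCaP, LNCaP-ENZ48, RES-A, RES-B. Between 2 and 12 barcodes were shared by any pair of libraries. All 9 markers of luminal prostate epithelium were detected in every library, with a summed level of 1843 to 2395 CPM (UMIs of a gene scaled to the same total in every library), though the androgen-induced marker KLK3 had 2 UMIs in RES-A, where 8 of the 9 reached 1 CPM. The 8 markers of stroma, a tissue rich in IGF-binding proteins, summed to 3.75 to 6.91 CPM. The collagen gene COL1A2 was at 0 in every library, while the collagen gene COL1A1 had 83 to 181 UMIs and ACTA2 61 to 159 UMIs. The immune markers PTPRC and CD3E, the endothelial marker CDH5 and the basal markers KRT5, KRT15 and TP63 were at 0 throughout. The other markers of these 3 lists stayed low, the highest being VWF with 51 UMIs in LNCaP and CD68 with 58 UMIs in RES-A, each near 1 CPM.

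IGF1 and IGF2 are secreted ligands that bind the receptor tyrosine kinase IGF1R, while insulin binds the related INSR, and the adaptor proteins IRS1 and IRS2 pass the signal on to PI3-kinase and AKT. IGF2R has no kinase, carries IGF2 to the lysosome for breakdown, and also sorts lysosomal enzymes that bear mannose 6-phosphate. The binding proteins hold IGFs outside the cell, can keep them from the receptor or deliver them to it, and are in turn cut by proteases.

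IGFBP5 and IGFBP3 were the members that stood higher in both resistant lines, and the bases just before their transcription starts are shown to place them side by side. RefSeq (GRCh38.p14) gave a start for 9 of the 10 members. IGFBP5 lies on the minus strand of chromosome 2, and the 250 bases before its start span chr2:216695550-216695799. IGFBP3 lies on the minus strand of chromosome 7, and its 250 bases span chr7:45921273-45921522. Both are written 5′ to 3′ on the strand of the gene, and capitals mark the GC box GGGCGG or, on the other strand, CCGCCC.
IGFBP5: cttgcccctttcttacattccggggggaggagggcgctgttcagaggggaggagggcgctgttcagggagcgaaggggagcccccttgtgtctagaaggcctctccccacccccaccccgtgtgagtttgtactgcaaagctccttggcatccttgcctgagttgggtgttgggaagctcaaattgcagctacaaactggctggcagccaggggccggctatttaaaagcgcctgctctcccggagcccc
IGFBP3: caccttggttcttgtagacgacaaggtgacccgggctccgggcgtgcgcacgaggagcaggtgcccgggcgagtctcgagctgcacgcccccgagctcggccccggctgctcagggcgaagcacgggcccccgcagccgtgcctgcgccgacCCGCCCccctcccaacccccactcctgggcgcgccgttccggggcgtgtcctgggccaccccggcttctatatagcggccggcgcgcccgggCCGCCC
The 2 sequences differed in composition. IGFBP3 had 76% G or C and 32 CG pairs, and IGFBP5 had 61.2% and 8 pairs, beside medians of 58% and 11 pairs over the 35116 RefSeq starts. The GC box occurred 2 times before IGFBP3 and did not occur before IGFBP5, and 42.6% of all starts had one in the same window. The steroid receptor half-site AGAACA (or TGTTCT), present before 12.4% of all starts, was found before none of the 9 members, and the letters TATAAA (or TTTATA), present before 10.7%, occurred only before IGFBP4. These are matches of letters and say nothing of binding.

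Among the binding proteins, IGFBP5 showed the widest range. IGFBP5 binds IGFs and also sits in extracellular matrix. It was counted with 1 UMI in LNCaP and 7 UMIs in LNCaP-ENZ48, and it reached 299.7 CPM in RES-A, while RES-B had 119.8 CPM. The sensitive libraries were thus near 0 and the resistant lines high, with RES-B lower than RES-A by 1.32 on the log2 scale (95% interval of the log2 ratio -1.37 to -1.28). The ratio of LNCaP-ENZ48 to LNCaP was 2.53 on the log2 scale with an interval of -0.43 to 8.02, which holds 0. The UMIs of the sensitive libraries fell in 1 and 7 cells, 1 UMI a cell, and none of those barcodes occurred in a resistant library. All intervals here cover counting error only, since no group had a replicate. Those of levels and ratios take every UMI as independent, so they are too narrow for IGFBP5 and IGFBP3, whose UMIs were uneven over cells.

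IGFBP3, the main carrier of IGFs in blood and a protein known to restrain growth in many epithelial cells, had the reverse order of the resistant lines. Its level was 0.976 CPM in LNCaP (49 UMIs), 1.32 CPM in LNCaP-ENZ48 (80 UMIs), 8.86 CPM in RES-A (508 UMIs), and RES-B had 25.9 CPM (1361 UMIs). RES-B was highest and RES-A second, and the sensitive libraries, which could not be ranked, lay below both. Against LNCaP the log2 ratio was 3.18 in RES-A (2.76 to 3.64) and 4.73 in RES-B (4.32 to 5.17), against 0.43 after 48 h of drug (-0.10 to 0.97). RES-B exceeded RES-A by 1.55 on the log2 scale (1.40 to 1.70), while IGFBP5 differed between the lines in the other direction.

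IGFBP2, a binding protein abundant in prostate epithelium, was present in every library. It measured 162 CPM in LNCaP, 149 CPM after 48 h of drug, 249 CPM in RES-A against 108 CPM in RES-B. RES-A was highest and RES-B lowest, with both sensitive libraries between them, and each neighbour in the order RES-A, LNCaP, LNCaP-ENZ48, RES-B was set apart beyond counting error. That of LNCaP and LNCaP-ENZ48 rested on the scaling, with a log2 ratio of -0.12 (-0.16 to -0.08) by library totals and of -0.03 under TMM or -0.02 under DESeq2 size factors, where the interval holds 0. The log2 ratio to LNCaP was 0.62 in RES-A (0.58 to 0.66) and -0.58 in RES-B (-0.63 to -0.53). The lines therefore lay on opposite sides of the parent for IGFBP2, though neither passed a 2-fold difference from it.

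IGFBP4, which mostly keeps IGFs from their receptor, and IGFBP6, which prefers IGF2, were at the limit of detection. IGFBP4 had 1, 2, 2 and 0 UMIs and IGFBP6 2, 4, 4 and 0 UMIs in the 4 libraries. Neither gene could be ranked between libraries at this depth. Of the 4 binding protein genes listed beside the members, IGFBP1, IGFBP7, IGFBPL1 and IGFALS (the last makes the third partner of the circulating IGF complex), none reached 1 CPM in a library.

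**Figure D1:**
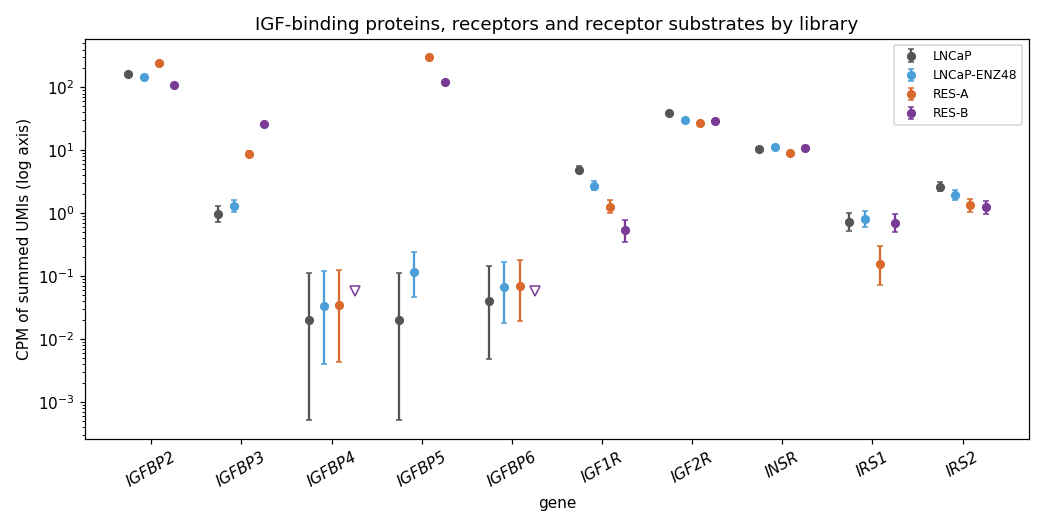
Level of each of the 10 genes in each library, as CPM of summed UMIs on a log axis, with exact Poisson 95% intervals (counting error only). Open triangles mark the level of 3 UMIs, where the count was 0. IGFBP5 goes from 1 UMI in LNCaP to 299.7 CPM in RES-A, IGFBP3 climbs to 25.9 CPM in RES-B, and IGF1R descends from 4.88 to 0.533 CPM.

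IGF1R, the signalling receptor for IGF1 and IGF2, was the member with the steadiest descent. It measured 4.88 CPM in LNCaP (245 UMIs), 2.75 CPM in LNCaP-ENZ48 (167 UMIs), 1.27 CPM in RES-A (73 UMIs), with RES-B at 0.533 CPM (28 UMIs). The level was lower in each library in that order, and every step exceeded the counting error. On the log2 scale the ratio to LNCaP was -0.83 after 48 h of enzalutamide (-1.12 to -0.54), -1.94 in RES-A (-2.34 to -1.56) and -3.20 in RES-B (-3.82 to -2.63). RES-B was lower than RES-A by 1.26 on the same scale (interval of the log2 ratio -1.94 to -0.61).

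IGF2R, which clears IGF2 and sorts lysosomal enzymes, varied little. Its level was 38.5 CPM in LNCaP, 30.6 CPM after 48 h of drug, 27.5 CPM in RES-A against 29.8 CPM in RES-B. LNCaP was highest, and the other libraries lay close together, with LNCaP-ENZ48 and RES-B not set apart when scaled by library totals. The log2 ratio to LNCaP was -0.33 after 48 h of drug, and the resistant lines had -0.49 (RES-A) and -0.37 (RES-B). INSR, the insulin receptor, was flatter still, at 10.5, 11.3, 9.05 and 10.9 CPM in the 4 libraries. Its log2 ratio to LNCaP in RES-A was -0.22 (-0.39 to -0.04). In LNCaP-ENZ48 and RES-B the INSR intervals were -0.07 to 0.27 and -0.12 to 0.22, though under TMM and DESeq2 size factors the LNCaP-ENZ48 ratio was 0.19 and 0.20, with an interval above 0.

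The substrates were scarce and differed between the resistant lines. IRS1 had 37 UMIs in LNCaP, 50 after 48 h of drug, 9 in RES-A but 37 in RES-B, that is 0.737, 0.822, 0.157 and 0.704 CPM. RES-A alone was low, with a log2 ratio to LNCaP of -2.23 (-3.47 to -1.15), whereas that of RES-B was -0.07 (-0.76 to 0.63). IRS2 had 133, 120, 77 and 65 UMIs in the same order of libraries, at 2.65, 1.97, 1.34 and 1.24 CPM. It was lower than in LNCaP in each of the others, with log2 ratios of -0.43 (-0.79 to -0.06), -0.98 (-1.40 to -0.56) and -1.10 (-1.55 to -0.66), and RES-A and RES-B were not set apart (-0.62 to 0.38). The first of these ratios was -0.33 under TMM and -0.32 under DESeq2 size factors, where its interval holds 0.

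**Figure D2:**
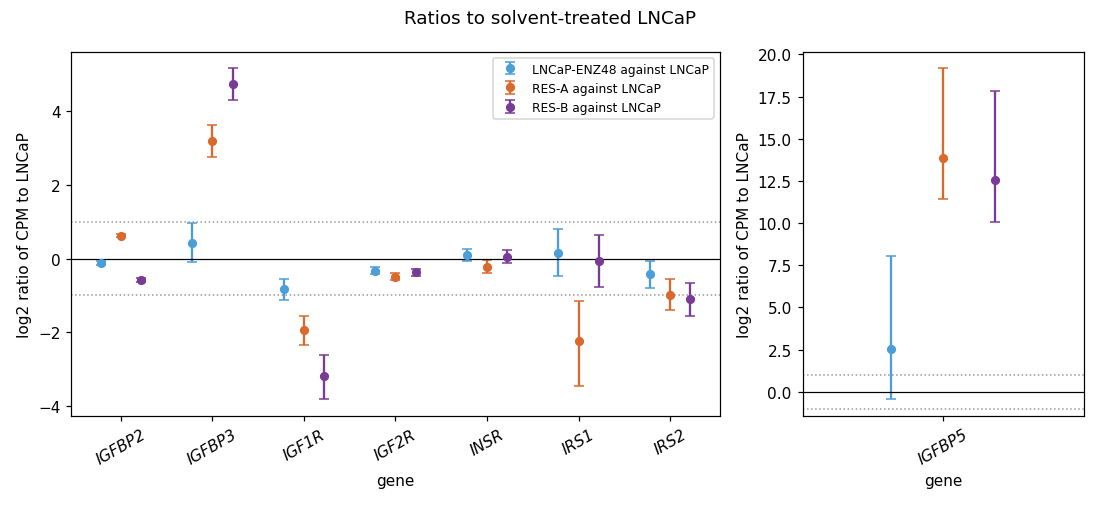
Log2 ratio of CPM to LNCaP for 8 genes, with exact 95% intervals for counting error; IGFBP5 has its own axis at the right, and dotted lines mark 2-fold. IGFBP3 lies above the upper line in both resistant lines (3.18 and 4.73) and IGF1R below the lower one (-1.94 and -3.20), while IGF2R and INSR stay between the lines.

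To set these differences against the whole transcriptome, the 7460 genes whose mean over the 4 libraries reached 10 CPM were compared, and a gene was counted as different when its log2 ratio was at least 1 or at most -1. Of the 10 members, 4 reached that mean: IGFBP2, IGFBP5, IGF2R and INSR. At a mean of at least 1 CPM (12627 genes), 7 members could be compared, with IGFBP3, IGF1R and IRS2 added. IGFBP5 reached either mean only through the resistant lines and had to differ, the mean of IGFBP3 also came mostly from them (its LNCaP level was under 1 CPM), and the members were picked with such values in view. Nothing is drawn from the place of either gene in the counts.

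After 48 h of enzalutamide 1 of the 4 members (and of the 7) was at least 2-fold higher, IGFBP5 on its 7 UMIs, beside 0.335% of all genes at 10 CPM and 0.744% at 1 CPM. None was at least 2-fold lower, beside 0.563% and 1.21%. In RES-A against LNCaP 1 of 4 was higher (IGFBP5) and, at 1 CPM, 2 of 7 (IGFBP3 and IGFBP5), beside 3.71% and 7.89% of all genes. None of the 4 and 1 of the 7 (IGF1R) were lower in RES-A, beside 4.24% and 6.86%.

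In RES-B against LNCaP the same 2 binding proteins were higher, 1 of 4 and 2 of 7, beside 4.73% and 7.9% of genes. None of the 4 and 2 of the 7 (IGF1R and IRS2) were lower, beside 3.12% and 5.32%. Between the resistant lines, none of the 4 and 1 of the 7 (IGFBP3) exceeded the RES-A level in RES-B, beside 3.46% and 5.36%. IGFBP2 and IGFBP5 among the 4, joined by IGF1R among the 7, were lower in RES-B, beside 1.7% and 4.01%. As a description, the 7 members had median log2 ratios of -0.12 after 48 h of drug, -0.22 for RES-A and -0.37 for RES-B. The median of all 12627 genes was -0.08, 0.02 and 0.10. For the 4 members at 10 CPM the medians were -0.01, 0.20 and -0.16, beside -0.07, 0.02 and 0.11 for all 7460 genes. The RES-A median thus changed sign with the level minimum, and no shift of the family is read from so few genes.

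The share of cells with a UMI was compared after every cell had been thinned to 5000 UMIs, because LNCaP cells were deeper than the rest. At that depth IGFBP5 was found in 46.7% of RES-A cells (exact binomial 95% interval 45.3 to 48.2) and 16.4% of RES-B cells (15.3 to 17.6), against 0.0561% in LNCaP and 0.0463% in LNCaP-ENZ48. At full depth 61.5% and 24.1% of the cells held it. IGFBP3 was found in 0.393%, 0.718%, 3.81% and 7.46% of cells of the 4 libraries, and IGF1R in 3.14%, 1.53%, 0.591% and 0.295%. At full depth the IGFBP3 shares were 2.75%, 1.81%, 8.19% and 13%, and the IGF1R shares 12%, 3.78%, 1.58% and 0.689%.

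IGFBP2 was the most widely detected member in every library. Its share at 5000 UMIs was 54.9%, 49.8%, 69.5% and 38.5% in the 4 libraries, highest in RES-A. IGF2R was found in 16%, 13.9%, 12.8% and 13.5% of cells and INSR in 5.05%, 5.7%, 4.31% and 5.15%, in the same order. The substrates were found in few cells, IRS2 in 1.63%, 0.997%, 0.591% and 0.591% and IRS1 in 0.561%, 0.394%, 0.0657% and 0.443%. The shares of IGFBP2, IGF2R and INSR thus followed their summed levels. Every library held 1 cell line, and no cell type without these genes was at hand to measure the share that free RNA in the droplets gives, so its part in the shares of cells with a single UMI was not tested.

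**Figure D3:**
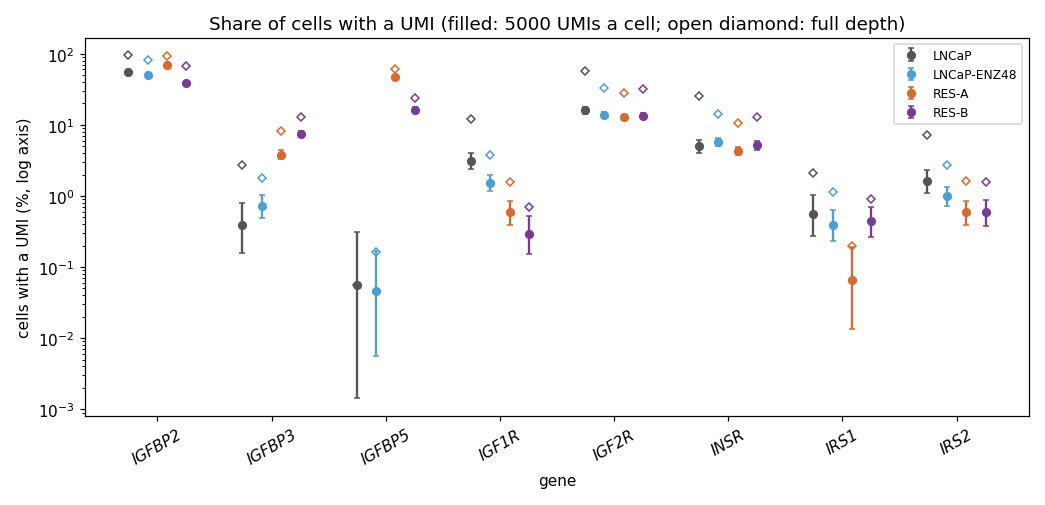
Share of cells with at least 1 UMI of each gene, in percent on a log axis. Filled points are cells thinned to 5000 UMIs with exact binomial 95% intervals, and open diamonds are the same cells at full depth; the diamond and point for IGFBP5 in LNCaP rest on 1 cell. IGFBP5 and IGFBP3 are highest in the resistant lines, IGF1R in LNCaP.

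The binding proteins differed in how their molecules were spread over cells. Had the IGFBP5 UMIs of RES-A fallen at random, with equal chance for every cell, 79.8% of cells would have held one, where 46.7% did. In RES-B 47.9% would have, where 16.4% did. The variance over the mean (1 for such a random spread) was 5.67 in RES-A, against 12.5 in RES-B. By that measure the lower total of RES-B came with a more uneven spread. The 10% of cells with the most IGFBP5 held 55% of its UMIs in RES-A and 90.2% in RES-B. Such a share also rises where a gene has fewer UMIs, as for IGFBP2 (29.9% in RES-A and 44% in RES-B), so the lines are not compared by it. Cells with at least 5 IGFBP5 UMIs made up 10.9% of RES-A and 3.87% of RES-B.

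IGFBP3 was also uneven, with a variance over the mean of 2.01 (RES-A) and 3.7 (RES-B). In RES-B 7.46% of cells held a UMI, and 13.1% would have under a random spread. IGFBP2 stood apart from both, with a variance over the mean of 1.09 to 1.17 in the 4 libraries, and IGF2R and INSR had values of 0.971 to 1.15.

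**Figure D4:**
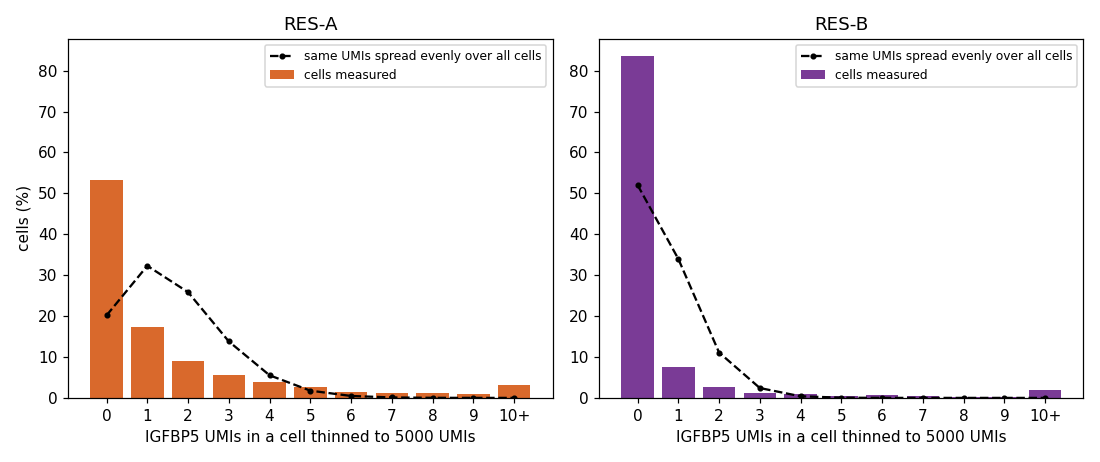
Percent of cells by their number of IGFBP5 UMIs after thinning to 5000 UMIs, in RES-A and RES-B, with the last bar for 10 or more. Dashed lines give the percent if the same UMIs fell at random, with equal chance for every cell. Both lines have more cells without IGFBP5 (53.3% and 83.6%) and more with 10 or more UMIs (3.04% and 1.87%) than the random spread.

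Cells with and without an IGFBP5 UMI at 5000 UMIs were then compared within each resistant line. There were 2134 with and 2435 without in RES-A, and 666 and 3395 in RES-B. IGFBP2 was higher in the cells with IGFBP5 in both lines, at 296 against 213 CPM in RES-A (log2 ratio 0.47, 0.40 to 0.55) and 147 against 97.6 CPM in RES-B (0.59, 0.44 to 0.74). Among genes of at least 100 CPM in the same library, that ratio lay at the 99.5 percentile of 1210 genes in RES-A and the 99.7 percentile of 1275 genes in RES-B. In cells called G1 alone, a setting chosen after seeing the data, the IGFBP2 ratios were 0.52 and 0.58. The 2 genes are neighbours on chromosome 2 with their 3′ ends facing each other across 7.67 kb. IGFBP2 runs from 216632828 to 216664436 on the plus strand and IGFBP5 from 216672105 to 216695549 on the minus strand (GRCh38, GENCODE 44).

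With at least 1 IGFBP5 UMI asked for, IGFBP3 had ratios of opposite sign in the resistant lines. In RES-A it was lower in the cells with IGFBP5, at 6.75 against 11.1 CPM (log2 ratio -0.72, -1.15 to -0.29). In RES-B it was higher, at 48 against 24.3 CPM (0.99, 0.71 to 1.25). These intervals leave out the uneven spread of IGFBP3 over cells (variance over the mean 2.01 and 3.7), so they are too narrow. When at least 2 IGFBP5 UMIs were asked for, the RES-A ratio was -0.42 with an interval of -0.91 to 0.05, which holds 0. Opposite directions are therefore not read from these ratios. The ratios of IGF2R and INSR had intervals that held 0 in both lines. So did those of IGF1R, at 0.73 (16 against 11 UMIs) in RES-A and 1.86 (5 against 7 UMIs) in RES-B, but with at least 2 IGFBP5 UMIs the RES-A ratio was 1.59 (0.40 to 2.82). The cells with IGFBP5 were slightly shallower at full depth (medians of 11519.5 against 12637 UMIs in RES-A and 11787.5 against 12386 in RES-B), and fewer of them were called G2/M (15.7% against 22.2% and 11% against 18.1%). Luminal markers differed by -0.02 and -0.08 on the log2 scale, and stromal markers summed to 4.87 against 4.76 CPM in RES-A and 4.51 against 4.3 CPM in RES-B.

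Several members varied with the called cell cycle phase. IGFBP5 had a log2 ratio of G2/M over G1 cells of -0.66 in RES-A (-0.72 to -0.60) and -1.26 in RES-B (-1.39 to -1.13). These intervals leave out its uneven spread over cells (variance over the mean 5.67 and 12.5), so no difference is read from them. IGF2R was lower in G2/M in all libraries, with log2 ratios of -1.30 in LNCaP (-1.52 to -1.08), -1.13 after 48 h of drug (-1.40 to -0.86), -0.47 in RES-A (-0.67 to -0.28), and -0.55 (-0.76 to -0.34) in RES-B. The 2 sensitive libraries thus showed the larger drop, and their intervals did not meet those of the resistant lines. In RES-B the IGFBP3 ratio was -0.39 (-0.61 to -0.17), and in RES-A its interval held 0 (-0.52 to 0.15). The RES-B interval leaves out the uneven spread over cells (variance over the mean 3.7), so no difference is read from it. INSR had ratios of -0.33 to -0.45, with an interval that held 0 in RES-B, and IGFBP2 ranged from -0.16 to -0.03. IGF1R was lower in G2/M in LNCaP (-0.69, -1.26 to -0.15), and its intervals held 0 in the other libraries. The share of cells called G2/M was 19.7%, 12.5%, 19.2% and 16.9% in the 4 libraries, and the part of free RNA in the phase calls was not tested.

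Copy number is not measured by RNA, so the genes around each member were only set beside it. The median log2 ratio of up to 50 expressed protein-coding genes around each member, relative to all such genes, was taken beside the member's own. IGF1R lies on the plus strand of chromosome 15 from 98648539 to 98964530, and around it (31 genes found) the median was -0.70 in RES-A and -0.43 in RES-B, where IGF1R itself stood at -1.96 and -3.31. IRS2 lies on the minus strand of chromosome 13 from 109752695 to 109786583. Around it (40 genes) the median was -0.56 in RES-A and -0.09 in RES-B, where IRS2 stood at -1 and -1.22. The window spanned 18.7 Mb for IGF1R and 61.7 Mb for IRS2. With a window of 20 genes the medians in RES-A and RES-B were -0.55 and -0.48 around IGF1R. Around IRS2 they were -0.49 and 0.04. The genes around IGF2R on chromosome 6 (37 genes) were shifted up, by 0.28 and 0.12, while IGF2R stood at -0.51 and -0.49. Around IGFBP3 the medians were 0.06 and 0.04, where IGFBP3 stood at 3.16 and 4.61. Those around IGFBP5 were 0.07 and 0.10, where IGFBP5 stood at 13.86 and 12.44. Windows of this width cannot show a change confined to a few genes, and the part of dosage was not tested for any member.

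**Figure D5:**
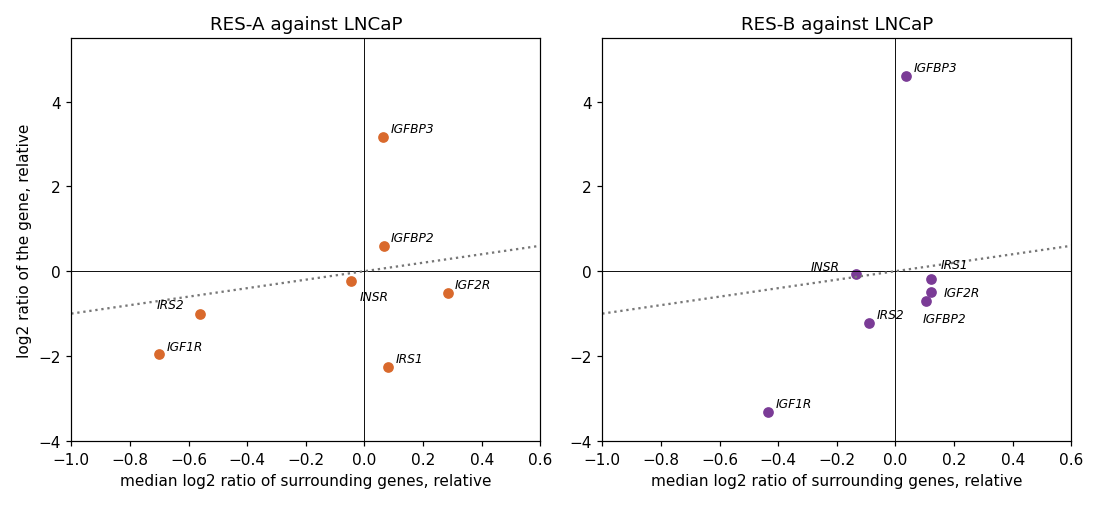
For RES-A and RES-B against LNCaP, the log2 ratio of each gene (vertical) against the median log2 ratio of its surrounding expressed genes (horizontal), both relative to the median of all expressed protein-coding genes; the dotted line marks equal values, and IGFBP5 is off the scale. IGF1R sits in a lowered segment in both lines (-0.70 and -0.43), and IGFBP3 lies far above surroundings near 0.

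The genes whose levels were most like those of IGFBP5 and IGFBP3 over the 4 libraries were sought among 8328 genes by distance between centred log2(CPM + 1) profiles, a description over 4 points. Nearest to IGFBP5 were VIM, the mesenchymal filament vimentin (distance 2.3), CCDC80 (2.56) and the nuclear receptor gene NR2F1 (3.19). VIM measured 2.07, 2.09, 211 and 59.9 CPM in the 4 libraries. Among the nearest to IGFBP3 were BTLA, an immune checkpoint receptor gene (0.212), and LAMA3, a laminin chain (0.319). LAMA3 measured 4, 4.16, 20.9 and 48.9 CPM, with RES-B highest as for IGFBP3.

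The other genes of the pathway were described from lists of 53 symbols, chosen like the members with earlier results known. Of 25 that reached a mean of 10 CPM, 1 was at least 2-fold higher and none lower after 48 h of drug, 4 were higher and 1 lower in RES-A, and 4 higher and 1 lower in RES-B, against LNCaP, with medians of 0.09, 0.05 and 0.21 on the log2 scale. The median of all 7460 genes was -0.07, 0.02 and 0.11, and the shares of those genes that were higher and lower were 0.335% and 0.563%, 3.71% and 4.24%, and 4.73% and 3.12%. Of the ligands, IGF2 had at most 1 UMI in a library and INS none. IGF1, which fell short of the level for naming and was picked after its values were seen, had 59, 27, 160 and 253 UMIs (1.18, 0.444, 2.79 and 4.81 CPM) in the 4 libraries.

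HTRA1, a secreted protease that cuts IGF-binding proteins, followed the order of IGFBP5. It had 0.518, 0.772, 10.8 and 4.6 CPM in the 4 libraries, with log2 ratios of 4.38 and 3.15 in the resistant lines. STC2, an inhibitor of the IGFBP protease PAPPA, was within 2-fold of LNCaP everywhere (-0.59, -0.77 and -0.40). PAPPA itself was scarce, with 11, 12, 2 and 9 UMIs in the 4 libraries.

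Below the receptors 9 listed genes reached a mean of 10 CPM, namely adaptor and kinase genes and FOXO3. Of these, 8 of the 9 were within 2-fold of LNCaP in all comparisons with it. AKT1 was among them, at 0.54 in RES-A (0.46 to 0.62). PIK3R1, a regulatory subunit of PI3-kinase, had 49.6, 54.3, 25.9 and 94.7 CPM in the 4 libraries, -0.94 in RES-A but 0.93 in RES-B on the log2 scale, and RES-B exceeded RES-A by 1.87 (1.79 to 1.95). PIK3R3, another such subunit, was higher in RES-B, at 57.5 against 27 CPM in LNCaP (log2 ratio 1.09). GRB10, an adaptor that inhibits IGF1R and INSR, separated the libraries differently from any member. It had 42.3, 90.6, 102 and 39 CPM in the 4 libraries, so that the acutely treated cells and RES-A were high (1.10 and 1.26 on the log2 scale) and RES-B was at -0.12.

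In the list of mannose 6-phosphate sorting, the second task of IGF2R, GNPTAB, which makes the tag, was higher at log2 ratios of 1.77 (RES-A) and 1.21 (RES-B), and the lysosomal protease CTSB was lower in RES-B (-1.07), where the 38 expressed genes around it had a relative median of -0.83. Of the genes listed as induced by FOXO factors, which AKT holds in check, SESN3 and CITED2 were higher in RES-A (1.87 and 1.70) and RES-B (1.17 and 1.10), whereas BCL6 and TXNIP were lower in RES-A (-2.11 and -1.30) and at -0.63 and -0.10 in RES-B. The list thus held members on both sides, with a median of -0.27 (RES-A) and -0.10 (RES-B) over the 5 genes that reached 10 CPM.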

How the data were processed

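Single-cell RNA was measured in 4 libraries, 1 per group. The deposited values are UMI counts per gene and barcode, made by the authors with Cell Ranger 3.0.2 and GRCh38 per the file headers and the labels. Cells were filtered with the limits the study set for each library (3000 to 7000 genes and 16000 to 50000 UMIs in LNCaP, 1500 to 5000 genes and 5000 to 25000 UMIs in the others, mitochondrial share under 15%, 15%, 17% and 20%), so LNCaP cells are deeper partly by selection. The number kept equals that of the study for LNCaP and RES-A and is slightly below it for the others.

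UMIs were summed per library and scaled to CPM, with exact Poisson 95% intervals, and log2 ratios had exact conditional binomial (Clopper-Pearson) intervals. Both kinds of interval take UMIs as independent. A count of 0 was set to 3 UMIs, and no ratio was given where both counts were 3 or fewer. With 1 library per group no test was run. The members and gene lists were chosen with earlier results of these data known. Named were all members, pathway genes with 10 CPM in a library and a 2-fold difference from LNCaP, and the 3 genes most like a member whose log2(CPM + 1) ranged over at least 2 (1 of these is not reported here). Phases were scored in scanpy 1.11.5 with the lists of Seurat 5.3.0. Scrublet called 3 to 6 cells a library, too few to trust that caller, so doublets stayed in. Genes were placed with GENCODE 44 by gene ID (33113 of 33538 matched). Alternatives were TMM (edgeR 4.0.16) and DESeq2 1.42.0 size factors, other cell filters, thinning, G1 cells, leaving out the highest Scrublet scores, other level minimums, a window of 20 genes, and a higher IGFBP5 minimum. The intervals were checked on simulated Poisson counts only. That is the model they assume, so the check says nothing of UMIs that are uneven over cells.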

Additional observations from a re-analysis of the deposited data

Results flagged for a closer look

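IGFBP2 differed from LNCaP in opposite directions in the resistant lines, with log2 ratios of 0.62 (RES-A) and -0.58 (RES-B), a gap of -1.20 on the log2 scale. With 1 library per line the difference was not tested, and it held its direction under every alternative run.

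IGFBP3 differed in opposite directions between cells with and without an IGFBP5 UMI, with log2 ratios of -0.72 (RES-A) and 0.99 (RES-B), a gap of 1.70. The difference was not tested. Among cells called G1 alone, an alternative chosen after seeing the data, the ratios were -0.93 and 1.12. With at least 2 IGFBP5 UMIs they were -0.42 and 1.04, and the RES-A interval (-0.91 to 0.05) holds 0, which ends the call of opposite directions.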

How the results depend on the processing

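No ratio past 2-fold changed sign under the scaling, cell filter, depth, cell cycle and doublet settings that gave it a value. IGFBP5 in LNCaP-ENZ48 had none in thinned cells, where both counts were under the floor of 3 UMIs. Counts of members past 2-fold moved with the level minimum, since several members are scarce. In LNCaP-ENZ48 the count of higher members was 1, and 0 with cells thinned to 5000 UMIs or G1 cells only. In RES-A the higher count went from 1 to 2 and the lower from 0 to 1 (mean of 1 CPM) or 2 (no filter). In RES-B they went from 1 to 2 and from 0 to 2. For RES-B against RES-A the higher count went from 0 to 1 or 2 and the lower from 2 to 3. Near the 2-fold line, IGFBP5 in LNCaP-ENZ48 was at least 0.53 in G1 cells (6 UMIs against 0, set to 3, a bound and no measured fall), IGF1R in LNCaP-ENZ48 was -1.04 in thinned cells, IRS2 in RES-A ranged to -1.46 and IRS2 in RES-B to -0.95, and IGF1R between the resistant lines was -0.9999 in thinned cells. The sign of INSR in RES-B and of IRS2 between the resistant lines turned with the setting, as did IRS1 in LNCaP-ENZ48 (-0.51 when thinned). TMM scaling moved the median of all genes in RES-B by -0.11 and DESeq2 size factors moved that of LNCaP-ENZ48 by 0.10. The causes were not tested. No paired analysis was possible because each group had 1 library. Genes of at most 50 UMIs a library, such as IGFBP4, IGFBP6 and IRS1, are limited by depth.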

Other observations

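Of the pathway genes under the level for naming, 4 are given here, picked after their values were seen. STC1, an inhibitor of IGFBP proteases, measured 0.797, 0.855, 2.69 and 6.2 CPM in LNCaP, LNCaP-ENZ48, RES-A, RES-B, in the order of IGFBP3. GRB14, an inhibitor of the insulin receptor related to GRB10, measured 1.63, 0.986, 6.09 and 1.52 CPM and was high in RES-A alone. SOCS1, an inhibitor of cytokine and insulin signalling, measured 0.777, 0.97, 2.72 and 2.02 CPM. IGFALS had 0, 2, 21 and 2 UMIs, with RES-A highest.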
